A study of Mus musculus with 130 samples.

Results

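Mice whose back skin is labelled anagen, the growth stage of the hair cycle, differed widely in how much hair keratin message their skin held, and 26 of the 38 anagen mice were compared here by that measure. The study profiled dorsal skin of 130 untreated mice, 92 of them labelled telogen, the resting stage. They came from a backcross of FVB/N with Mus spretus: F1 females, born to FVB/N mothers and M. spretus fathers, were bred to FVB/N males, so each mouse carries its own mixture of alleles. All were kept to the age of 7 weeks, the skin was shaved and snap frozen, and total RNA was hybridised to an Affymetrix array, 1 array per mouse. The mice were chosen by a hair keratin score made from measured values: in each anagen mouse, the log2 values of 6 hair shaft keratins (Krt31, Krt33a, Krt33b, Krt34, Krt35 and Krt86) were each centred on the mean of the 38 mice and then averaged. The 13 mice with the highest scores are called high-score, the 13 with the lowest are called low-score, and the other 12 are the middle-score mice.

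Hair grows from a pocket of dividing matrix cells at the base of the follicle. Their daughters become either the hair shaft, with its central medulla, its cortex and its outer cuticle, or the inner root sheath, a set of layers that moulds the shaft and is broken down near the skin surface. The signals Shh and Wnt, the latter acting through Lef1, are known for their part in the matrix, and BMP signals for the differentiation of the shaft. Type I and type II keratins pair to form the filaments of each layer, and the keratin-associated proteins (Krtap) fill the space between filaments in the shaft. At the end of growth the follicle regresses, a phase called catagen, and then rests.

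The score chose the mice, so its genes are given as a description with no test. The score ran from 0.75 to 3.18 in the high-score mice (median 0.98), from -0.05 to 0.72 in the middle-score mice (median 0.33) and from -3.64 to -0.28 in the low-score mice (median -1.16). The mouse just inside the high group had 0.75 and the one just outside 0.72, while -0.28 and -0.05 stood on either side of the lower limit. The upper limit thus divided a continuous run of scores, whereas the low-score mice were spread over more than 3 log2 units. Krt31 had a median log2 value of 4.60 in telogen (3.83 to 5.32), 7.88 in the low-score mice (4.69 to 8.93), 9.56 in the middle-score mice and 10.15 in the high-score mice (9.95 to 12.53). Krt86 followed the same order, at 4.26, 8.26, 9.97 and 10.51. On the same scale the telogen mice scored from -4.64 to -2.95 (median -4.17), and 3 low-score mice lay at or below the highest telogen mouse. With 4 low-score mice under -2 and 1 high-score mouse over 3, 5 mice stood far from the rest, and most counts and calls that change without them are given both ways.

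**Figure D1:**
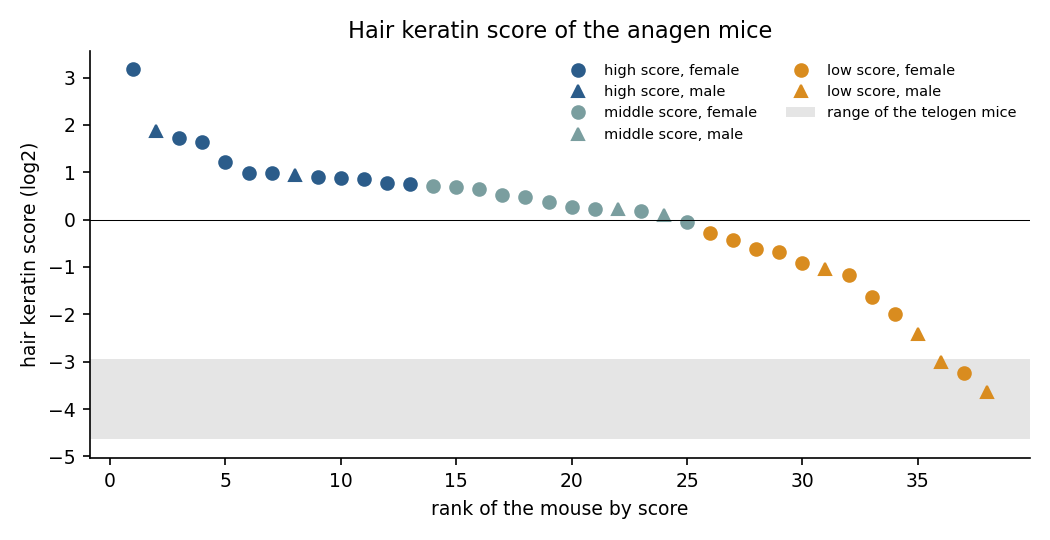
Hair keratin score (log2, vertical axis) of the 38 anagen mice in order of rank (horizontal axis). Circles are females and triangles males, colours are the 3 score groups, and the grey band is the range of the 92 telogen mice, -4.64 to -2.95, which 3 low-score mice reach.

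The labels other than stage did not differ between the groups beyond what the tests could detect. There were 11 females among the 13 high-score mice and 9 among the 13 low-score mice (Fisher's exact test, two-sided, p = 0.645). The age label, whose unit is not written, averaged 41.85 ± 1.77 (SD, n = 13) in the high-score and 42.85 ± 2.88 (SD, n = 13) in the low-score mice (permutation test, two-sided, p = 0.342). Over the batches named P1 to P4 the high-score mice numbered 3, 4, 2 and 4 and the low-score mice 4, 1, 4 and 4 (permutation test of the chi-square statistic, p = 0.52). The titles carry prefixes of unexplained meaning: LGX in 6 high-score and 8 low-score mice, PLX in 6 and 4, NOVA-vehicle in 1 high-score mouse and PLX-vehicle in 1 low-score mouse, although every mouse is labelled untreated. LGX against the others did not differ past the threshold (Fisher's exact test, two-sided, p = 0.695). All 4 p-values were 0.695 after Benjamini-Hochberg adjustment over these 4 tests. Array medians were 5.493 to 5.693 in the high-score and 5.529 to 5.731 in the low-score mice, and Pearson's r between anagen arrays ran from 0.942 to 0.989.

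The comparison could be read as one of advanced against early growth, and this reading was checked against markers of the growing matrix. Of 24 regulators of matrix and shaft, 13 were higher and 4 lower in the low-score mice than in telogen, and the 4 markers set for the matrix were not alike. Hoxc13 (1.00, SE 0.11, adjusted p = 3.54e-13) and Msx2 (0.65, SE 0.10, adjusted p = 3.31e-08, limma) were higher in the low-score mice than in telogen. Shh, the matrix signal, had a log2 median of 3.89 in telogen and 4.11 in the low-score mice, both under the lowest anagen array median (5.493). How well its probe reads a difference at that level was not tested. Lef1, the Wnt effector of matrix and shaft precursors, had 6.51 in telogen and 6.14 in the low-score mice, and it was the telogen mice that had more (low minus telogen -0.39, SE 0.12, adjusted p = 0.0118). Of all genes 11.1% were higher and 13.9% lower in the low-score mice than in telogen. The groups are called by their score. The labels hold no record of whether a low-score mouse was entering or leaving growth, and this was not tested.

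The clearest pattern was in the inner root sheath, which the score did not use, where genes of one structure stood at very different points in the low-score mice. Among the protein-coding genes of the reference, keratins 25 to 28 follow one another on mouse chromosome 11, and keratins 71 to 73 on chromosome 15. Krt74, another sheath keratin, was not found among those genes, so its place is not given. The 100 bases before the start of 4 of them are shown from RefSeq (GRCm38.p6, minus strand, written 5′ to 3′), since neighbours in the same cluster gave different results: Krt71 (chr15:101743098-101743197) and Krt25 (chr11:99322952-99323051) stood in the low-score mice 80.4% and 75% of the way, on the log2 scale, from telogen to the high-score mice, and Krt28 (chr11:99374904-99375003) and Krt72 (chr15:101786521-101786620) stood at 18.3% and 38.2%. Capitals mark TATAAA, the letters of a TATA box, searched on both strands.
Krt71: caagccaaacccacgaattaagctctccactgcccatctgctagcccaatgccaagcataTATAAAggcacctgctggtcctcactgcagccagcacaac
Krt25: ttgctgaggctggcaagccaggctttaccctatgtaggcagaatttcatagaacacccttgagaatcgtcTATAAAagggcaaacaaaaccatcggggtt
Krt28: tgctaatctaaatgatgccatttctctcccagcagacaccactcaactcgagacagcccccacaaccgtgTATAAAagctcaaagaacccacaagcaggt
Krt72: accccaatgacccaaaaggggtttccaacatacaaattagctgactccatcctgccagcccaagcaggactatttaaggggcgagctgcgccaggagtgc
The motif was present before Krt71, Krt25 and Krt28, starting 40, 30 and 30 bases before the gene's start, and was not in the window of Krt72. Only these exact letters were searched, so this does not show that Krt72 lacks a TATA box. Similar letters, such as the tatttaa in its window, were not counted. TATAAA was in 8 of the 15 inner root sheath genes with a promoter in the table (53.3%, of 17 measured), in 32 of 41 Krtap genes (78%, of 45 measured) and in 1608 of 27025 promoters of the same length (5.95%). These letters were thus shared by Krt28 and by genes that stood nearer the high-score level in the low-score mice.

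Krt71, the type II keratin of all sheath layers, had log2 values of 3.66 to 7.14 in telogen (median 4.75), 7.24 to 11.73 in the low-score mice (median 10.35), 10.90 to 12.05 in the middle-score mice (median 11.33) and 11.19 to 12.85 in the high-score mice (median 11.72). Every low-score mouse exceeded every telogen mouse, and 2 of the 13 lay within the high-score range. Krt28, a type I keratin of the same sheath, had 2.63 to 4.97 in telogen (median 3.55), 3.39 to 6.92 in the low-score mice (median 4.47), 5.48 to 8.55 in the middle-score mice (median 8.01) and 6.45 to 11.68 in the high-score mice (median 8.59). Here 9 of the 13 low-score mice stayed inside the telogen range. The telogen and low-score medians of Krt28 were under the anagen array medians (5.493 to 5.731). The low- and high-score medians of Krt71 were far above them. Both genes rose with the score, Krt71 by 1.87 (SE 0.29, 3.65-fold, adjusted p = 9.50e-05) and Krt28 by 4.22 (SE 0.46, 18.6-fold, adjusted p = 7.30e-07, limma with terms for sex and batch, n = 13 and 13).

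The 2 keratins could be out of step within 1 mouse. Anagen mouse 1, a female with a score of -0.69, had a Krt71 value of 11.73, inside the range of the high-score mice, and a Krt28 value of 4.14, inside that of telogen. Anagen mouse 8, a female with -1.63, had 11.37 and 4.44. Anagen mouse 5, a male with -1.05, had 10.82 and 6.92, so mice of like score did not all share the gap.

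To place each gene, the low-score median was written as a share of the distance, on the log2 scale, from the telogen median to the high-score median, for genes with a distance of at least 2. This measure was chosen after the values had been seen and carries no test. A very dim or very bright probe may move less than its message, and the part of signal level in the order was not tested. Of 13 sheath genes with such a distance, 6 stood over 50% and 7 under. Above were Krt71 (80.4%), Krt27 (79.2%), Tchhl1 (79.1%), Tchh (77.7%), Krt25 (75%) and Crnn (66.8%). Tchh encodes trichohyalin, the protein that hardens the sheath and fills the medulla, and Tchhl1 and Crnn belong to the same family of fused S100 proteins. Below were Krt26 (45.2%), Krt72 (38.2%) and Krt73 (38.7%), known as keratins of the sheath cuticle, Padi1 (41.5%) and Padi3 (40.2%), enzymes that convert arginine in trichohyalin to citrulline, Krt28 (18.3%) and Krt74 (9.57%), a keratin of the Huxley layer. In the middle-score mice, which the contrast did not use, Krt28 stood at 88.6% and Krt71 at 94.3%, so the gap between them was far narrower there. These mice were placed by the same score, with a median of 0.33 against 0.98 (high) and -1.16 (low). A level near that of the high-score mice is thus favoured by the choice. Without the 5 far mice the first set ran from 73.4% to 86.5% and the second from 12.7% to 62.9%, with Krt28 at 23.5% and with Padi1 (62.9%), Krt26 (56%), Krt73 (52.8%) and Padi3 (52.2%) now over 50%.

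**Figure D2:**
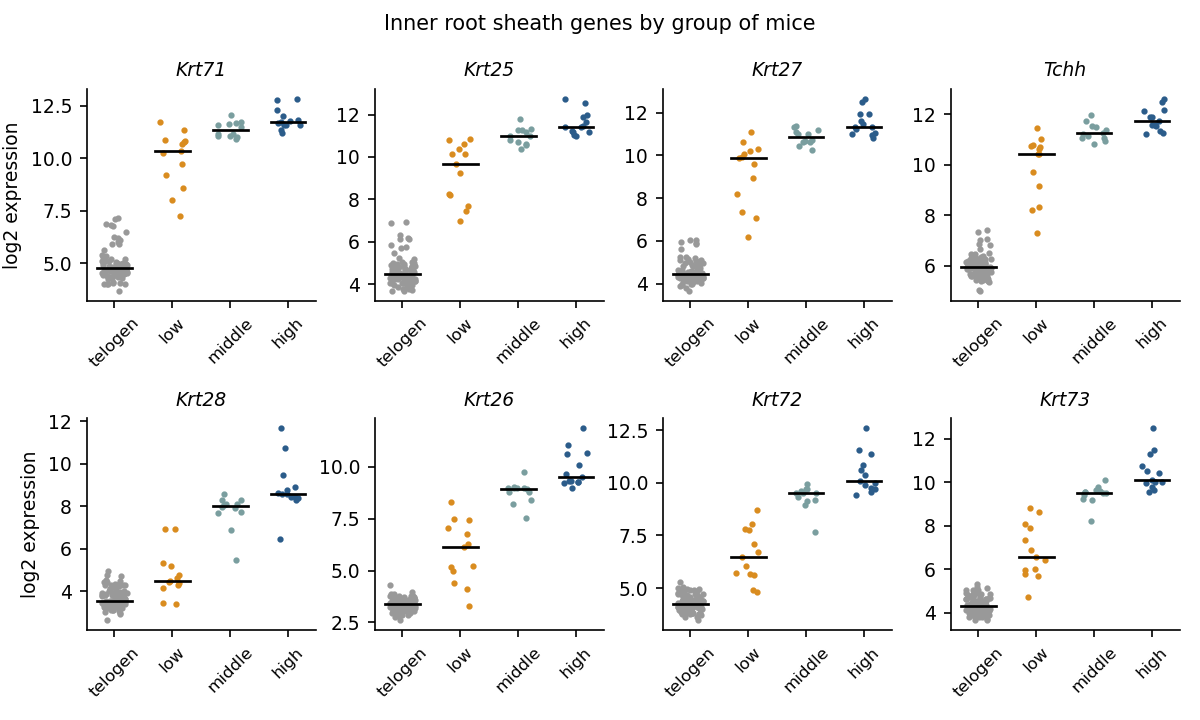
Log2 expression (vertical axes) of 8 inner root sheath genes in telogen, low-, middle- and high-score mice. Each point is a mouse and each bar a group median. Krt71, Krt25, Krt27 and Tchh are far above telogen in most low-score mice, whereas for Krt28 the low-score median is 4.47, against 3.55 in telogen.

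By the test, 15 of 17 measured sheath genes rose and 0 fell (median difference 2.37, against -0.02 over all genes). Among all 18804 genes tested, 3079 (16.4%) were called at an adjusted p under 0.05, with 7.18% higher and 9.19% lower in the high-score mice. Since these mice were picked for hair keratins, a rise of another hair structure is close to the choice itself. Sheath genes with high- and low-score mice wholly apart numbered 8, beside 0.542% of all genes (0.516% with the high-score mice above and 0.0266% with them below). Krt72 had 4.82 to 8.69 in the low-score and 9.43 to 12.61 in the high-score mice, a rise of 4.02 (SE 0.40, adjusted p = 2.44e-07). Krt26 had 3.31 to 8.29 and 8.99 to 11.89, a rise of 4.19 (SE 0.44, adjusted p = 4.88e-07). For both, no low-score mouse reached any high-score mouse. Padi3 rose by 3.25 (SE 0.29, adjusted p = 1.16e-07), and Tgm3, the transglutaminase that cross-links trichohyalin, by 1.42 (SE 0.28, adjusted p = 0.00102). Tgm3 had a lower median in the low-score mice (7.30) than in telogen (7.70). Gata3, a regulator of sheath fate that the epidermis also expresses, differed by -0.18 (SE 0.11, adjusted p = 0.306). The same count, 15 of 17, was obtained without the far mice, at a median of 1.52. In skin as a whole, fewer cells of a type and less message per cell cannot be told apart, here and below.

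The shaft genes outside the score share cells, and the keratins also sequence, with the genes that chose the mice. Their differences between the groups are described with no p. In the Krtap family all 45 measured genes were higher in the high-score mice, by 0.10 to 4.05 (median 2.26). The groups were wholly apart for 12, beside 0.542% of all genes, and the choice of mice itself favours this. Krtap24-1 had 2.96 to 4.63 in telogen (median 3.68), 4.11 to 7.49 in the low-score mice (median 4.82), a median of 8.19 in the middle-score mice and 7.62 to 12.34 in the high-score mice (median 8.95). Krtap20-2 had a telogen median of 6.11 and values of 6.59 to 12.30 in the low-score (median 11.02) and 9.90 to 12.40 in the high-score mice (median 11.61). The first set the low- and high-score mice wholly apart, though narrowly (at most 7.49 against at least 7.62), with a difference of 4.05. The second left them almost superimposed at the top, with a difference of 0.84 (SE 0.45), and 9 of the 13 low-score mice lay within the high-score range.

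The Krtap genes fell into a similar order by family. In 14 genes of Krtap6, 7, 8, 19, 20 and 21, the families rich in glycine and tyrosine, low-score mice stood at 58.3% to 95.7% of the way from telogen to the high-score mice (median 83.2%), and at 65.9% to 106% (median 88.4%) without the far mice. In 5 genes of Krtap5 and Krtap10, cysteine-rich families known from the cuticle, they stood at 31.9% to 56.4% (median 33.8%), and at 50% to 73.7% (median 53.6%) without the far mice. In the other 23 they ranged from -0.996% to 85.1% (median 63.3%), and from 3.44% to 89.5% (median 71%) without the far mice. At the ends were Krtap6-2 at 95.7% and Krtap12-1 at -0.996%, the latter being at its telogen level in the low-score mice. Krtap8-1 stood at 85.9%, and at 88.9% without the far mice. Krtap24-1 stood at 21.7%, and at 43.4% without them. The families were set side by side after the values had been seen, their members are alike in sequence, and a probe for one may also read another.

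Among 6 other shaft keratins the order was wider still. Krt82, a cuticle keratin, had telogen, low-, middle- and high-score medians of 5.06, 5.81, 7.86 and 8.80, and its low-score mice (5.08 to 7.70) were all below its high-score mice (8.01 to 10.95). Krt40, another shaft keratin, had 5.05, 5.42, 7.20 and 8.02. For these, low-score mice stood at 20.2% and 12.3% of the rise, for Krt39 at 62.6%, but for Krt36 at 116% and for Krt84 at 103%. Leaving out the far mice put Krt82 at 36.9% and Krt40 at 27.1%. Krt36 and Krt84 were thus as high in low-score as in high-score mice, and their middle-score medians stood lower, at 74.5% and 80.5%. Krt32, a cuticle keratin, was higher in the high-score mice by 1.64 (SE 0.21), with 12 of 13 high-score mice above every low-score mouse.

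**Figure D3:**
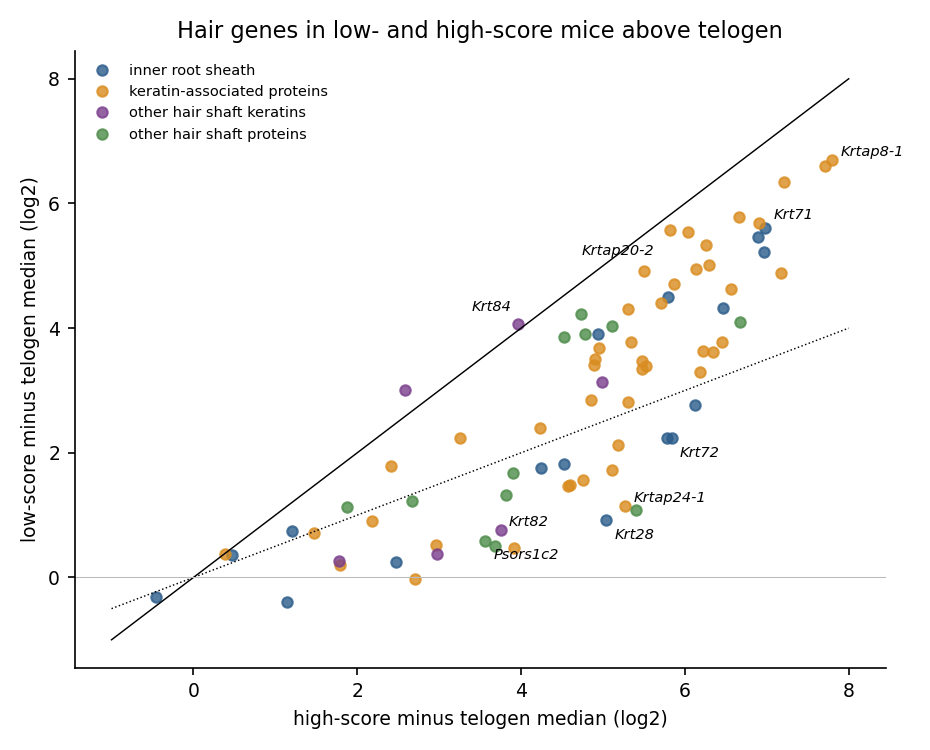
Low-score minus telogen (vertical) against high-score minus telogen (horizontal), as differences of log2 medians, for each measured gene of 4 hair lists. The solid line is equality and the dotted line 50% of the rise. Krt84 lies on the solid line, while Krt28, Krt82 and Krtap24-1 lie below the dotted line.

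Among 12 other shaft genes the differences ran from 0.93 to 4.40 (median 2.13), all towards the high-score mice. Calhm4, a channel protein, had 4.07 to 7.72 in the low-score mice (median 4.80) and 7.75 to 12.13 in the high-score mice (median 9.12), and its difference of 4.40 (SE 0.43, 21.2-fold) was the largest among the named genes. The difference was 3.25 (SE 0.32) for Crym, a thyroid hormone binding protein, 3.46 (SE 0.41) for Gprc5d, an orphan receptor of hard-keratin cells, and 3.10 (SE 0.31) for Psors1c2. The low-score mice stood at 20% of the rise for Calhm4, 13.5% for Crym and 16.6% for Psors1c2, and at 24.3%, 25.8% and 37.4% without the far mice. They stood at 89.3% for Pinlyp, 84.8% for Lrrc15 and 81.6% for Dsg4, the desmosomal cadherin of the shaft. Genes of this list thus also stood at very different points in the same mice.

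Outside the lists, the largest rises included Lyg2, a lysozyme-like protein, with 4.43 to 8.19 in the low-score and 8.33 to 11.49 in the high-score mice (difference 3.96, SE 0.41, adjusted p = 4.43e-07). Fbp1, the gluconeogenic fructose bisphosphatase, had 4.06 to 7.23 in the low-score and 7.89 to 11.63 in the high-score mice (3.70, SE 0.37, adjusted p = 2.93e-07). Ly6g6g rose by 3.19, Capn8, a calpain protease, by 2.77 and Vsig8, a surface protein, by 2.74. For Lyg2, Fbp1 and Vsig8 the groups did not overlap. Rises of at least 2-fold numbered 223 genes (1.19%), against 16 falls of that size (0.0851%).

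Of the regulators of matrix and shaft, 16 of 24 measured genes rose and 2 fell (median 0.54), and without the far mice 12 rose and 2 fell. With the far mice kept, 75% of this list was called, beside 16.4% of all genes. Shh had 3.46 to 4.79 in telogen, 3.66 to 4.45 in the low-score, 4.20 to 5.65 in the middle-score and 4.66 to 6.54 in the high-score mice. All 13 low-score mice thus lay inside the telogen range and below every high-score mouse, and the rise was 1.23 (SE 0.15, adjusted p = 5.32e-06). Low-score mice did not differ from telogen in Shh past the threshold (0.10, 95% interval -0.07 to 0.27, adjusted p = 0.441). Both groups lay under the lowest anagen array median (5.493), where a difference may be hard to read. Dlx3, a homeobox factor needed for the shaft, had 7.43 to 8.86 in the low-score and 8.87 to 10.78 in the high-score mice, without overlap (1.40, SE 0.18, adjusted p = 5.42e-06). Foxn1, the gene of the nude mouse, had medians of 6.87, 6.99, 7.68 and 8.17 from telogen to high score (1.19, SE 0.18, adjusted p = 5.28e-05). Hoxc13, which binds hair keratin promoters, had medians of 6.67, 7.99, 8.63 and 8.95, a wide step above telogen already in the low-score mice, and it rose by 1.14 (SE 0.18, adjusted p = 8.57e-05). Msx2 rose by 1.20 (SE 0.20) and Elf5, an ETS factor, by 1.57 (SE 0.20). Lef1 rose by 0.88 (SE 0.25, adjusted p = 0.0183), but without the far mice its difference was 0.57 (adjusted p = 0.226), and without anagen mouse 21, a high-score male, 0.74 (adjusted p = 0.0718).

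**Figure D4:**
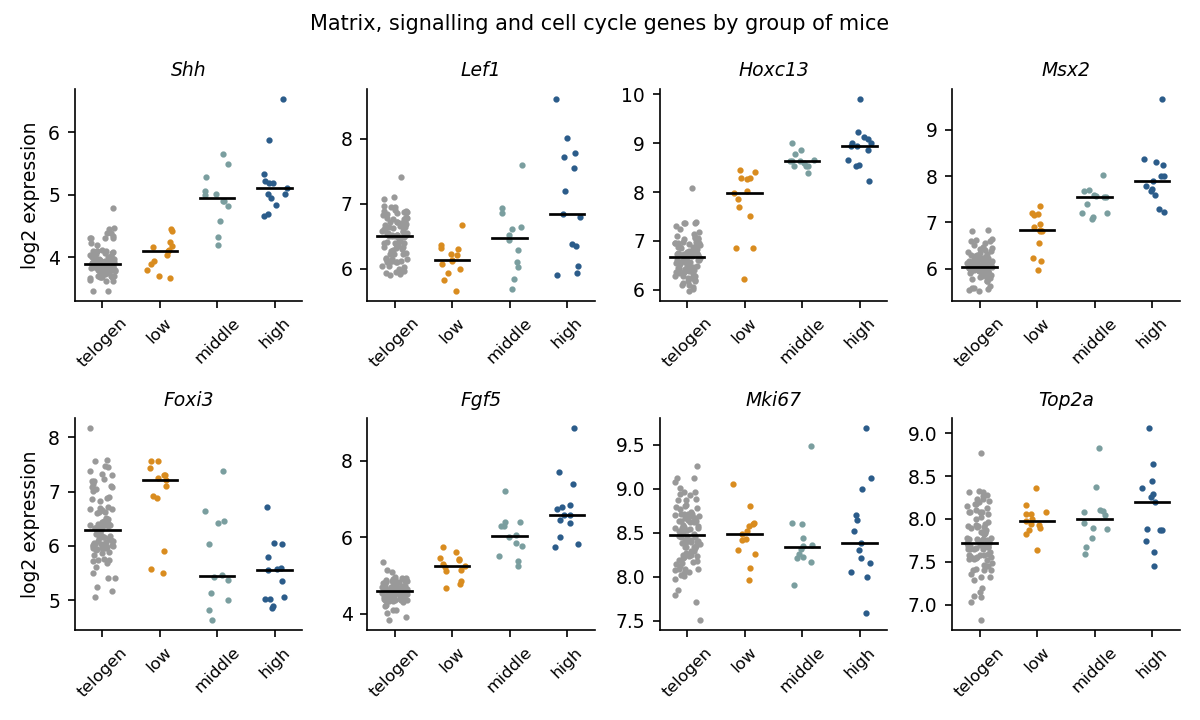
Log2 expression (vertical axes) of matrix regulators, signals and cell cycle genes in telogen, low-, middle- and high-score mice. Points are mice and bars group medians. For Shh the low-score mice (median 4.11) overlie telogen (3.89), Foxi3 has its highest median, 7.21, in the low-score mice, and Mki67 has similar medians throughout.

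Foxi3, a forkhead factor of early ectodermal appendages, had the largest fall among the named genes and its highest median in the low-score mice. It had 5.05 to 8.17 in telogen (median 6.30), 5.51 to 7.57 in the low-score mice (median 7.21), a median of 5.44 in the middle-score mice and 4.86 to 6.72 in the high-score mice (median 5.55). It was above 6.5 in 10 of 13 low-score and 1 of 13 high-score mice. The 3 low-score mice under 6 were all males, of 4 males in that group. The fall was 1.46 (high minus low -1.46, SE 0.22, adjusted p = 5.20e-05). Low-score minus telogen, fitted with terms for sex and batch, was 0.37 and not called (SE 0.16, adjusted p = 0.0828, limma). Females were 9 of the 13 low-score and 40 of the 92 telogen mice, and the part of sex in the medians was not tested. Within each of the batches P1 to P4 the difference in Foxi3 was -1.04, -1.93, -1.59 and -1.32, with 1 low-score mouse in P2. In the same order the difference was 1.38, 1.13, 1.33 and 1.08 in Shh and 1.73, 1.41, 1.31 and 2.83 in Krt71.

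In signalling, the BMP list moved most, with 8 of 16 genes higher and 2 lower (median 0.28). The share called was 62.5%, beside 16.4% of all genes. Bmp8a, a ligand, had 3.65 to 5.44 in the low-score and 5.55 to 7.32 in the high-score mice, without overlap (1.47, SE 0.15, adjusted p = 4.58e-07). Bambi, a decoy receptor that damps BMP and TGF-beta signals, rose by 1.36 (SE 0.16), the inhibitory Smad6 by 0.74 (SE 0.11) and the receptor Bmpr1b by 0.82 (SE 0.15). Bmp4 (0.13, adjusted p = 0.721) and its antagonist Nog (0.09, adjusted p = 0.585) were not called. A ligand, a receptor and inhibitors were higher together in the high-score mice. The count without the far mice was 8 higher and 0 lower.

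Of 28 Wnt genes 5 rose and 5 fell (3 and 4 without the far mice). With the far mice kept, 35.7% of them were called, beside 16.4% of all genes. Wnt11 rose by 1.18 (SE 0.14, adjusted p = 1.84e-06), with at most 6.45 in the low-score and at least 6.51 in the high-score mice, and Wnt5a rose by 0.71 (SE 0.16). Wnt3 fell by 0.63 (high minus low -0.63, SE 0.12) and the agonist Rspo3 by 0.48 (-0.48, SE 0.12). Wnt10b, a ligand tied to the start of growth, differed by 0.08 (adjusted p = 0.822). Without anagen mouse 38, 8 of the Wnt genes fell. Of 10 hedgehog genes 2 rose, Shh and Gli3, and Boc fell by 0.33 (-0.33, SE 0.10), a call lost without any 1 of 4 mice (anagen mouse 2, 4, 21 or 37, adjusted p = 0.0511 to 0.11). The share of hedgehog genes called was 30%, beside 16.4% of all genes. With the far mice left out Shh was the 1 hedgehog gene called, Gli3 (0.37, adjusted p = 0.0557) and Boc (-0.24, adjusted p = 0.187) being past the threshold no longer. The pathway targets Ptch1 (0.29, SE 0.12, adjusted p = 0.108) and Gli1 (0.30, SE 0.17, adjusted p = 0.276) were not called beside the rise of their ligand.

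Among genes tied to the end of growth, more were called lower than higher. Of 13 catagen-associated regulators 1 rose and 5 fell (1 and 4 without the far mice), beside 7.18% of all genes higher and 9.19% lower. The riser was Fgf5, the signal whose loss gives long-haired angora mice. It had 3.83 to 5.35 in telogen, 4.67 to 5.74 in the low-score and 5.76 to 8.86 in the high-score mice, again without overlap (1.49, SE 0.26, adjusted p = 2.59e-04). Igfbp5 fell by 0.78 (-0.78, SE 0.15), Igfbp3 by 0.56 (-0.56, SE 0.13) and Tgfb2 by 0.52 (-0.52, SE 0.13, adjusted p = 0.00797). Igfbp3 was not called without the far mice (-0.43, adjusted p = 0.117).

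Of 29 cell cycle genes 1 rose (Birc5, 0.38, SE 0.13) and 1 fell (Ttk, -0.32, SE 0.10), which is 6.9% called beside 16.4% of all genes, and without the far mice limma called 0. Mki67 had medians of 8.47, 8.49, 8.34 and 8.38 from telogen to high score (difference 0.02, 95% interval -0.36 to 0.40). Birc5 lost its call in 15 and Ttk in 5 of the 26 fits that left out 1 mouse. Ttk was not called after each array was centred on its median (-0.28, adjusted p = 0.0621).

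Cysteine feeds the cross-links of hair, and 11 of 19 genes for its supply and use rose and 2 fell, a list that also holds some sheath enzymes. Called genes made up 68.4% of it, beside 16.4% of all genes. The counts were 7 and 0 without the far mice, and 0 fell without anagen mouse 6 or 21. Slc7a11, the cystine importer, had 4.47 to 5.50 in the low-score and 4.67 to 8.95 in the high-score mice (1.76, SE 0.31, adjusted p = 2.93e-04), and 12 of 13 high-score mice exceeded every low-score mouse. Slc7a11 also sets the balance of pigment types. Of 17 pigment genes 2 rose, Ednrb by 0.94 (SE 0.30) and Mitf by 0.56 (SE 0.11), and Sox10 fell by 0.46 (-0.46, SE 0.09). That is 17.6% called, close to the 16.4% of all genes, and without the far mice 1 rose and 2 fell. The number that rose was 1 without anagen mouse 4, 21, 29 or 36 and 4 without mouse 6 or 24. The enzymes Tyr (0.54, adjusted p = 0.259), Tyrp1 (0.41, adjusted p = 0.634) and Dct (-0.02, adjusted p = 0.983) were not called. Ednrb was not called without the far mice (0.75, adjusted p = 0.21) or without any 1 of 6 mice.

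In the outer layers, 3 of 11 companion layer and outer root sheath genes rose (2 without the far mice). With the far mice kept, 27.3% of this list was called, beside 16.4% of all genes. Krt75, the companion layer keratin, had 9.77 to 11.10 in the low-score and 11.21 to 12.68 in the high-score mice (1.20, SE 0.14, adjusted p = 1.37e-06), and Cdh3, P-cadherin, rose by 0.60 (SE 0.11). Of 16 bulge stem cell genes 10 fell and 1 rose (median -0.35), which is 68.8% called. Lgr6 fell by 0.67 (-0.67, SE 0.11, adjusted p = 1.52e-04), Nfatc1, a keeper of stem cell rest, by 0.67 (-0.67, SE 0.14), Fgf18, a signal of the resting follicle, by 0.77 (-0.77, SE 0.19), and Krt15 by 0.48 (-0.48, SE 0.12). Lgr5 differed by 0.15 (adjusted p = 0.75). Once the far mice were left out 5 of the 16 fell, and Fgf18 was not among them (-0.53, adjusted p = 0.12). Of 21 dermal papilla genes 4 fell and 1 rose, which is 23.8% called beside 16.4% of all genes. Crabp1, a retinoid-binding protein, fell by 0.76 (-0.76, SE 0.13, adjusted p = 2.80e-04). The count of 4 became 2 without any 1 of anagen mice 4, 6, 12, 32 and 37, and 3 without the far mice.

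Among genes of other cells of the skin that passed the test, most were lower in the high-score mice. The falls took in 11 of 13 genes of antigen presentation and dendritic cells (median -0.61), 8 of 18 macrophage genes (median -0.59) and 8 of 12 mast cell genes (median -0.49). Among 18 genes of fibroblasts and their matrix 12 fell and 1 rose (median -0.52). In that order 84.6%, 44.4%, 66.7% and 72.2% of the lists were called, beside 16.4% of all genes (9.19% lower). Low-score minus telogen medians of these lists were -0.09, -0.07, -0.04 and -0.15, beside -0.03 over all genes. H2-Ab1, of the class II antigen-presenting complex, had medians of 10.75, 10.64, 10.56 and 10.07 from telogen to high score (-0.72, SE 0.12, adjusted p = 2.00e-04). Col6a3, a collagen, had 8.33, 8.28, 7.41 and 7.47 (-0.87, SE 0.18, adjusted p = 0.00129), so its middle-score mice stood with the high-score ones. Cd86 fell by 0.74 (-0.74, SE 0.12), Adgre1, the F4/80 antigen, by 0.71 (-0.71, SE 0.14), and the mast cell proteases Mcpt4 by 1.12 (-1.12, SE 0.26) and Cpa3 by 1.07 (-1.07, SE 0.28). An array gives each gene relative to the others in the same RNA, hair keratins moved with these falls, and their part in them was not tested. Without the far mice 4 antigen presentation genes, 6 macrophage genes, 3 mast cell genes and 8 fibroblast genes fell, with list medians of -0.48, -0.77, -0.56 and -0.57, and Cpa3 was not called (-1.18, adjusted p = 0.0506). Anagen mouse 12, a low-score female, decided much of the fibroblast count, since 5 genes fell without that mouse, and the mast cell count was 4 without mouse 6 or 12 and 5 without mouse 21, 22 or 24.

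Of 16 epidermal differentiation genes 7 fell (median -0.35), and of 15 sebaceous gland genes 7 fell and 1 rose (median -0.39). Called genes made up 43.8% and 53.3% of these lists, beside 16.4% of all genes. Krt1, the keratin of suprabasal epidermis, had medians of 12.17, 11.94, 11.77 and 11.53 (-0.47, SE 0.12, adjusted p = 0.0106), and Awat1, a wax synthase of the gland, fell by 0.93 (-0.93, SE 0.28, adjusted p = 0.0264). The gland's riser was Fads2, a desaturase, at 0.85 (SE 0.19). Leaving out the far mice, 2 epidermal and 3 sebaceous genes fell, Awat1 not among them (-0.73, adjusted p = 0.264). Without anagen mouse 21 also 3 sebaceous genes fell, and Awat1 was not called without that mouse (-0.67, adjusted p = 0.12) or mouse 4 (-0.85, adjusted p = 0.0526). Of 12 T cell genes 3 fell (5 without anagen mouse 1, 31 or 33, and 1 without the far mice), and of 18 endothelial genes 3 (5 to 8 without mouse 8, 18, 31 or 38, and 7 without the far mice). The shares called were 25% and 16.7%, beside 16.4% of all genes (9.19% lower). Of 24 skeletal muscle genes 1 fell (Des, -0.52, SE 0.14, not called without mouse 12, adjusted p = 0.0543), while the mean muscle level, centred over all mice, ranged from -2.17 to 2.69 in the low-score and from -1.84 to 1.65 in the high-score mice. Of 18 adipocyte genes 2 rose and 1 fell, which is 16.7% called beside 16.4% of all genes. By limma 0 rose without the far mice, and the falls numbered 0 without anagen mouse 8, 12, 21 or 29, 2 without mouse 31 and 3 without mouse 1. Fabp4 rose by 0.87 (SE 0.22, adjusted p = 0.00669), though by 0.32 without the far mice (adjusted p = 0.352), and Adipoq differed by 0.12 (adjusted p = 0.888).

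**Figure D5:**
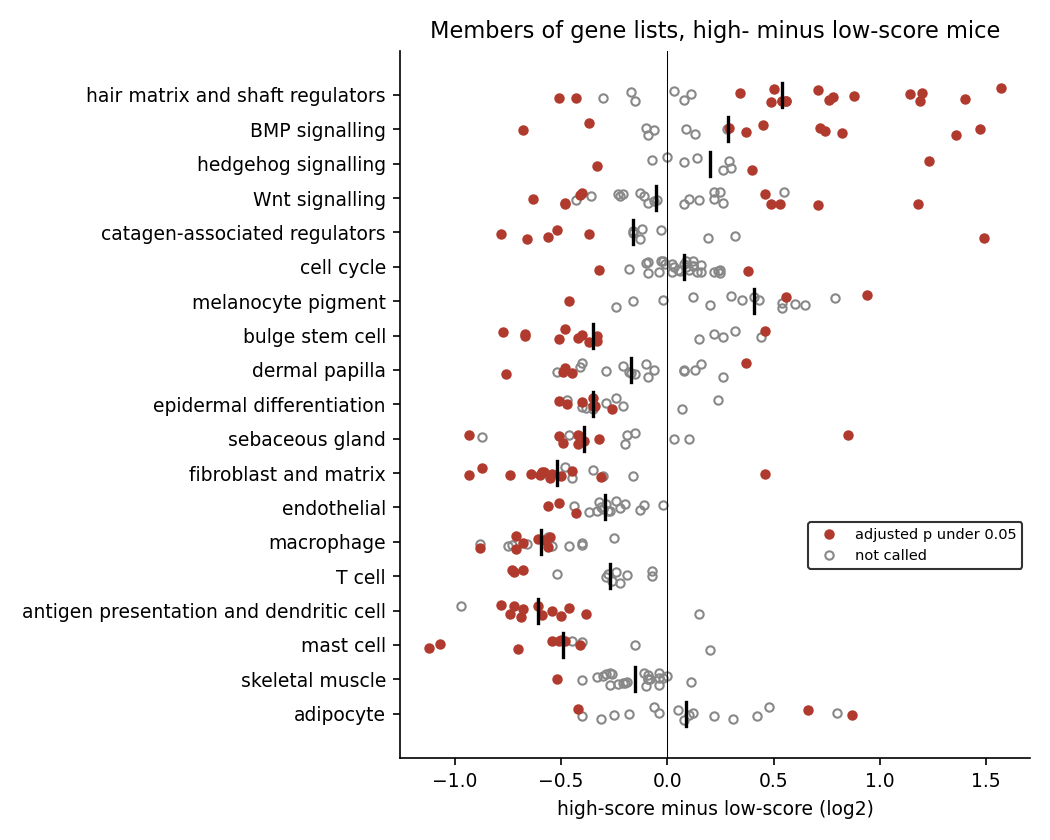
High-score minus low-score difference (log2, horizontal axis) of each measured gene in 19 lists (rows). Filled points passed an adjusted p of 0.05, open points did not, and bars are list medians. Matrix and BMP lists lie mostly to the right, fibroblast, macrophage, antigen presentation and mast cell lists to the left.

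A few further members did not follow their lists. Slc4a1, the red cell anion exchanger, rose by 1.80 (SE 0.28, adjusted p = 9.44e-05), from a median of 4.26 in telogen and 6.86 in the low-score to 8.40 in the high-score mice, and it was the riser among 3 erythroid genes measured. Sprr2h rose by 2.47 (SE 0.30, adjusted p = 3.69e-06) among 15 wound and stress genes, of which 5 rose, including Defb4 by 1.02 (SE 0.31, adjusted p = 0.0231) and S100a8 by 0.85 (SE 0.27, adjusted p = 0.0327). Sprr2h was the 1 of these 15 that rose when the far mice were left out, and 2 to 3 rose without any 1 of 13 mice. Of 14 clock genes Nfil3 rose by 0.71 (SE 0.12), and Npas2 (-0.67, SE 0.17) and Hlf (-0.45, SE 0.11) were among 4 that fell. The share called was 35.7% of clock genes and 33.3% of wound and stress genes, beside 16.4% of all genes. When the far mice were left out, Npas2 (-0.53, adjusted p = 0.109) and Hlf (-0.37, adjusted p = 0.0728) were not called, and 0 clock genes fell. Slc26a7, an anion transporter, fell by 1.42 (-1.42, SE 0.32, adjusted p = 0.0035), with medians of 8.16, 6.68, 5.47 and 5.40 from telogen to high score. Of 15 genes of oxidative phosphorylation 1 rose, which is 6.67% called beside 16.4% of all genes. It was Cox5a, by 0.47 (SE 0.14, adjusted p = 0.0224), a call lost without anagen mouse 12 (0.38, adjusted p = 0.0939) or 21 (0.40, adjusted p = 0.0758), or without the far mice (0.33, adjusted p = 0.305).

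In most genes that differed, the low-score mice lay on the way between telogen and the high-score mice. Of the 1351 genes called higher, 1087 had a low-score median between those of telogen and high score, and 264 had one below telogen. Of the 1728 called lower, 1382 had it between, and 346, Foxi3 among them, above telogen. Over all genes 55.9% had it between, and the choice of groups by hair keratins itself favours that order.

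The balance of calls depended on scaling. As deposited, 43.9% of the called genes were higher in the high-score mice, and with each array centred on its median the share was 55.5% (1600 higher and 1284 lower). The directions named above for lists of the hair, of matrix, BMP and of immune and fibroblast genes held under that centring.

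The relation of genes to the score was also compared between the 30 female and 8 male anagen mice. The slope of a gene on the score differed between the sexes in 24 genes (0.128% of those tested, adjusted p under 0.05, limma), with a higher slope in males for 23. Of the 24, 13 were Krtap genes. Krtap genes share cells with the score genes, so a slope on the score is itself close to the choice of mice. The test compared that slope between the sexes only. Lrrc15 had a slope of 0.29 in females and 0.82 in males, each fitted within the sex without a batch term. The limma fit, which held a batch term, gave a difference of 0.57 (SE 0.12, adjusted p = 0.0291). Of the 4 mice with a score under -2, 3 were males. With the far mice left out, 28 females and 5 males remained and 19 genes were called, of which 9 were among the 24, Lrrc15 (1.00, adjusted p = 0.00218) being one of them.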

How the data were processed

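The deposited table holds log2 values of 130 arrays that the authors processed with RMA, per the submitters' processing notes. The RMA version, the array type and any batch adjustment are not given in the sources used here. Of 35556 probes 171 held no value. Of the remaining 35385, 21201 carried 1 gene symbol, and the 1881 with several symbols and the 12303 with none were left out. The platform annotation gave the names, and 21168 probes matched the RefSeq table by Entrez ID. Each of 18810 genes was read from 1 probe, its brightest on average in the 130 mice. The 6 score genes were left out, and 18804 genes were tested.

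High- minus low-score differences were fitted with limma 3.58.1 in R 4.3.3 (lmFit, eBayes) on 26 mice with terms for sex and batch. Low-score mice were compared with telogen in a fit of all mice, added after seeing the data. Values of p were adjusted by Benjamini-Hochberg over all genes and called at 0.05. Folds are read from log2 differences. On simulated arrays of this comparison (18804 genes), 85 of 100 changes of 0.5 and 99 of 100 changes of 1 (log2) were called, with 9 unchanged genes. The simulated noise was drawn independently for each gene. Genes that vary together were not simulated, so these counts may not carry over to the real arrays. Permutation tests used 100000 resamples (scipy 1.17.1). Each mouse is 1 array and the number of mice limits the precision.

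The members and the gene lists were chosen with earlier results of these data known. Named genes were the 15 largest called differences each way (at most 2 per symbol stem, no provisional names), up to 4 called members of each list with the largest differences, 3 Krtap genes at each end, and a set of hair cycle genes named whether called or not. Other members are named by their position between telogen and high score, which was seen first. Alternatives covered group size, score genes, probes, covariates, scaling, low values, single mice and batches.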

Additional observations from a re-analysis of the deposited data

Results flagged for a closer look

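The slope on the hair keratin score differed between female and male anagen mice in 24 genes by limma's interaction test. Among the genes named by rule this took in Krt39, a shaft keratin, whose slope was higher in males by 0.30 log2 units per unit of score. Fits within each sex, without a batch term, gave slopes of 0.75 in females and 1.05 in males. Krt39 shares cells and sequence with the score genes, so its slope on the score is close to the choice of mice. Without the 5 far mice the difference between the sexes in Krt39 was 0.43 and was not called (limma, adjusted p = 0.144), and 9 of the 24 genes stayed called. At an unadjusted p under 0.05 the slopes of 1385 genes differed.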

How the results depend on the processing

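The number of called genes, 3079, fell to 1935 (893 of them lower) with the 19 highest against the 19 lowest scores. It fell to 1675 (828 higher, 847 lower) without the 5 far mice, and to 884 (603 higher, 281 lower) when middle-score mice took the place of the high-score mice, both added after seeing the data. Leaving out each of the 26 mice in turn gave 2349 to 3383 called genes, 1130 to 1504 higher and 1219 to 1911 lower. With middle against low, 5 named genes changed sign, none past the threshold on that side: Lor (0.12), Elovl1 (0.01), Fabp4 (-0.12), Il1r2 (0.05) and Dusp1 (0.08). The slope difference between sexes gave 12 genes with arrays centred on their medians. The cause of these changes was not tested. No paired analysis was possible because replicate numbers here only name mice and pair none across the groups. M. spretus alleles can weaken binding to a probe, and which probes they touch was not analysed here.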
